A study of Rattus rattus with 8 samples.

Results

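The genes of cholesterol and fatty acid synthesis were described in epithelium of the proximal colon from 2 inbred rat strains, the spontaneously hypertensive rat (SHR) and the Wistar-Kyoto rat (WKY), its customary normotensive control. The 36 genes were chosen by name, as enzymes and regulators of these pathways, and all 36 had a row among the 11762 genes listed and entered the test. They comprise 19 sterol enzymes, 5 regulators, 2 genes of sterol transport and storage, and 10 genes of fatty acid synthesis, elongation and desaturation. There were 4 SHR and 4 WKY libraries of poly(A) RNA from epithelium shaken off after chelation. No treatment is named, and the labels state neither age nor sex. The labels do not state that the numbered libraries of a strain came from different animals, so the p-values measure the spread between libraries, which may be technical. The submitters name the organism Rattus rattus, while the gene identifiers are those of the brown rat, the species of both strains.

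Cholesterol is built from acetyl-CoA. The early steps make mevalonate, isoprenoid units, farnesyl diphosphate and, by joining farnesyl units, squalene. The late steps oxidize and cyclize squalene to lanosterol and trim lanosterol to cholesterol. Fatty acid synthesis starts from the same acetyl-CoA and is followed by chain elongation and desaturation. Both pathways are switched on by the sterol regulatory element-binding proteins (SREBPs), which are escorted out of the endoplasmic reticulum by SCAP and held there by INSIG proteins when sterols are plentiful. Colonic epithelium renews continuously and needs membrane lipid for new cells.

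Levels are FPKM (fragments per kilobase of gene, scaled to library size; the unit was inferred from the values, as described with the processing), which is scaled by gene length, so levels of different genes can be set side by side. The read depth is unknown. Summed FPKM per library lay between 882295 and 1066833. The marker counts below stand beside 3.40% of all 11069 tested genes called higher and 7.48% called lower in SHR. Of 11 colonocyte markers 0 rose and 1 fell in SHR, and none was at 0 in any library, with summed levels of 30593 to 33169 FPKM in SHR and 25235 to 34403 FPKM in WKY. The marker that fell was the keratin gene Krt18, at 100.3 to 116.91 FPKM in SHR and 135.48 to 173.01 FPKM in WKY (log2 fold change -0.50, limma adjusted p = 0.0121). The transporter gene Slc26a3 and the carbonic anhydrase gene Car4 had log2 fold changes of 0.63 and 0.54 and did not pass, and that of Epcam was -0.03. Aqp8, a water channel of surface colonocytes, was low, at 0.31 to 5.88 FPKM in SHR and 8.68 to 95.4 FPKM in WKY. Among markers of other cells and of proliferation, calls went both ways. Of 3 macrophage markers listed 2 were tested, and 1 rose and 0 fell, with sums of 132 to 150 FPKM in SHR and 91.2 to 109 FPKM in WKY. The marker that rose was Cd14, at 127.07 to 136.46 FPKM in SHR and 84.78 to 90.25 FPKM in WKY (log2 fold change 0.59, limma adjusted p = 0.00188). Cd14 made up most of these sums. Lyz2 went the other way without passing (log2 fold change -0.80, limma adjusted p = 0.375). Csf1r, at 0.21 to 0.57 FPKM in SHR and 0.27 to 0.76 FPKM in WKY, was not tested. The macrophage list as a whole therefore showed no common direction. Of 10 proliferation markers 7 fell and 0 rose in SHR, with summed levels of 154 to 220 FPKM in SHR and 214 to 366 FPKM in WKY. Of 7 goblet cell markers 4 fell and 0 rose, with sums of 2337 to 3173 FPKM in SHR and 3872 to 5315 FPKM in WKY. Of 6 enteroendocrine markers 2 fell, Cck and Neurod1, and 0 rose (sums of 174 to 263 FPKM in SHR, 243 to 821 FPKM in WKY). Most of these sums came from Chga and Chgb, which did not pass (limma adjusted p = 0.272 and 0.226). Neurod1, at 0.31 to 0.54 FPKM in SHR and 1.02 to 2.39 FPKM in WKY, entered the test only through WKY. Its call is therefore no support for a difference. For lymphocytes, 3 of 4 markers fell and 0 rose (8.13 to 15.9 FPKM in SHR, 27.8 to 104 FPKM in WKY). Most of these sums came from Gzma, at 5.09 to 11.06 FPKM in SHR and 21.45 to 80.87 FPKM in WKY. Ptprc, at 0.54 to 1.42 FPKM in SHR and 1.59 to 6.0 FPKM in WKY, entered the test only through WKY. The call of Ptprc is therefore no support for a difference either. None of these markers was at 0 in any library. WKY replicate 3 stood apart, with the highest lymphocyte sum (104 FPKM), the highest enteroendocrine sum (821 FPKM) and the highest haemoglobin Hbb level (386 FPKM) of all libraries. It also had the lowest colonocyte sum of all libraries (25235 FPKM) and the lowest proliferation sum in WKY (214 FPKM). Car1 alone, at 18718 to 22609 FPKM in SHR and 14672 to 23349 FPKM in WKY, made up most of the colonocyte sum. That sum therefore mainly follows 1 gene. The part of cell makeup in the results below was not tested. In bulk RNA, fewer cells of a type and less RNA per cell cannot be told apart. The 3 fat cell markers listed summed to 78.1 to 133 FPKM in SHR, highest in replicate 3, and 61.1 to 79.0 FPKM in WKY. None was called in either direction. Pnpla2 made up most of these sums, at 66.86 to 108.74 FPKM in SHR and 50.6 to 60.9 FPKM in WKY. It narrowly missed the threshold (log2 fold change 0.50, limma adjusted p = 0.0536). The defining marker, Adipoq, stood at 1.13 to 2.15 FPKM in SHR and 0.84 to 2.70 FPKM in WKY.

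The comparison of SHR with WKY asked whether the lipid-making genes of the colonic epithelium stand at another level in the hypertensive strain. Most did not pass the test, and those that did were scattered over the pathways rather than lying along one stretch. In SHR, squalene synthase (Fdft1), sterol desaturase (Sc5d), the sterol carrier Stard4 and the elongases Elovl1 and Elovl6 rose, and the stearoyl-CoA desaturase Scd fell. That is 5 of 36 higher (13.9%) and 1 of 36 lower (2.78%), where 3.40% of all 11069 tested genes were higher and 7.48% lower (limma on log2(FPKM + 1), Benjamini-Hochberg adjusted p under 0.05). The counts of the gene groups below stand beside the same shares. Each group is small, so these counts are a description and no result about the group. The strains did not overlap for 6 of the 36 genes. Fdft1, Sc5d, Elovl1 and Elovl6 lay above WKY in every SHR library, and Scd and the desaturase gene Fads2 lay below. Over all tested genes 5.28% lay wholly above and 10.8% wholly below. In the authors' deposited table the same 5 genes had a q-value under 0.05 with a higher level in SHR, where 5.74% of all listed genes did, and Scd and Lss with a lower level, where 9.59% did. The median log2 fold change of the 36 was 0.10, beside -0.07 for all tested genes, and 22 were positive and 14 negative. In the limma fit the split over all tested genes was 376 higher and 828 lower without further scaling of the values. It was 541 and 714 after median centring, and 642 and 644 after quantile normalization. The 6 calls among the 36 genes were the same genes under each. Without SHR replicate 3, WKY replicate 1 or WKY replicate 4, 1 of the 36 genes (Elovl6, 2.78%) was still called higher. The share of all tested genes called higher was 1.94%, 2.25% and 2.00% in those fits, so this count was near that share. Without SHR replicate 4, 3 were called higher, beside 3.23% of all tested genes. Without SHR replicate 4 or WKY replicate 3, 2 genes were called lower, where 7.52% and 10.9% of all tested genes were.

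**Figure D1:**
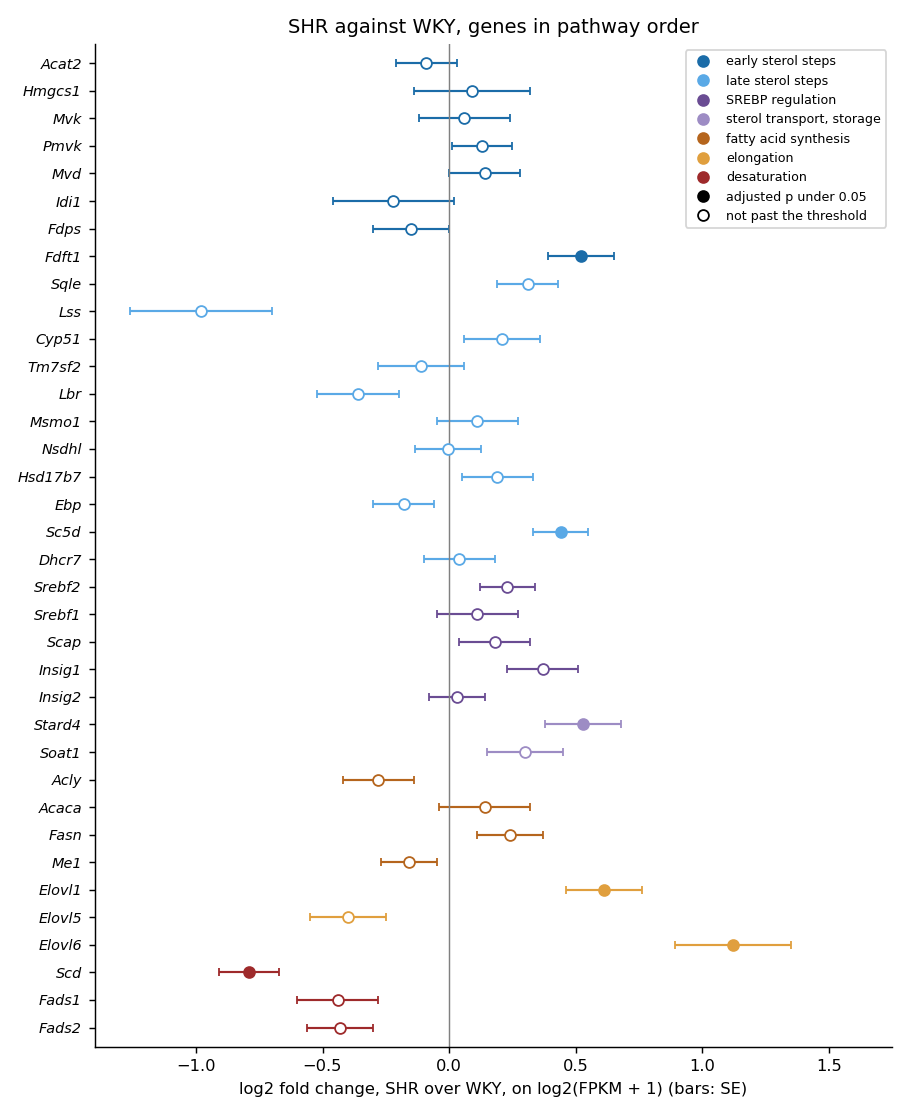
Log2 fold change of SHR over WKY on the log2(FPKM + 1) scale for the 36 genes in pathway order, with limma's standard error as bars. Filled points passed an adjusted p of 0.05: Fdft1, Sc5d, Stard4, Elovl1 and Elovl6 to the right of 0 and Scd to the left, while Lss lies farthest left at -0.98 with an open point.

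Of the 8 early sterol genes, 1 rose, 0 fell and 7 missed the threshold. Their median log2 fold change was 0.07. The gene that rose, Fdft1 (ENSRNOG00000021314), encodes squalene synthase, the enzyme that commits farnesyl diphosphate to sterols. Fdft1 was at 74.85, 66.31, 71.02 and 76.49 FPKM in SHR replicates 1 to 4, against 49.82, 61.12, 39.91 and 51.15 FPKM in WKY replicates 1 to 4. Every SHR library was above every WKY library, and the mean was 1.43 times as high, at 72.2 ± 4.53 FPKM in SHR and 50.5 ± 8.68 FPKM in WKY (SD, n = 4 each). Its log2 fold change stood at 0.52 ± 0.13 (SE, limma adjusted p = 0.0226). Leaving out SHR replicate 3, WKY replicate 1 or WKY replicate 4 ended the call, at adjusted p of 0.0554, 0.0552 and 0.0563 from limma, with log2 fold changes of 0.53, 0.52 and 0.53.

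The enzymes just upstream did not follow Fdft1. Fdps, which makes farnesyl diphosphate, had the highest level of the 36 genes. Its level was 204.71, 198.90, 189.51 and 191.14 FPKM in SHR replicates 1 to 4 and 210.79, 282.04, 162.89 and 230.91 FPKM in WKY replicates 1 to 4. The SHR libraries lay close together, inside the much wider WKY range. The log2 fold change of Fdps was -0.15, with a 95% confidence interval of -0.47 to 0.17 (limma adjusted p = 0.543). Idi1, the isomerase of isopentenyl diphosphate, averaged 36.5 ± 10.3 FPKM in SHR and 43.5 ± 15.5 FPKM in WKY, and its interval ran from -0.76 to 0.31. Hmgcs1 encodes the cytosolic HMG-CoA synthase at the head of the mevalonate pathway. It was at 76.82, 63.71, 63.34 and 124.88 FPKM in SHR replicates 1 to 4, against 80.35, 95.86, 52.74 and 74.47 FPKM in WKY replicates 1 to 4. SHR replicate 4 was the highest library of all, while the other SHR libraries lay within the WKY range (log2 fold change 0.09, interval -0.43 to 0.60). The thiolase gene Acat2 averaged 18.6 ± 1.32 FPKM in SHR and 20.0 ± 3.28 FPKM in WKY. The mevalonate kinase gene Mvk averaged 7.30 ± 1.94 and the phosphomevalonate kinase gene Pmvk 50.8 ± 4.23 FPKM in SHR, against 6.91 ± 1.37 and 46.4 ± 5.49 FPKM in WKY. The decarboxylase gene Mvd averaged 19.4 ± 1.94 FPKM in SHR and 17.7 ± 3.07 FPKM in WKY. These 4 genes had adjusted p-values between 0.480 and 0.868 by limma, and the strains overlapped for each.

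Of the 11 late sterol genes, 1 rose, 0 fell and 10 missed the threshold. Their median log2 fold change was 0.04. Sc5d (ENSRNOG00000008305), the desaturase near the end of the pathway, was at 22.84, 22.78, 24.66 and 28.36 FPKM in SHR replicates 1 to 4, against 17.81, 20.46, 17.17 and 16.39 FPKM in WKY replicates 1 to 4. No SHR library overlapped WKY, and the mean was 1.37 times as high. The log2 fold change was 0.44 ± 0.11 (SE, limma adjusted p = 0.0294). The call ended without SHR replicate 3 (limma adjusted p = 0.0786), SHR replicate 4 (0.0575), WKY replicate 1 (0.0760) or WKY replicate 4 (0.0961).

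Lss (ENSRNOG00000054549), which encodes lanosterol synthase, the cyclase that forms the sterol ring system, had the most negative log2 fold change of the 36 genes and missed the threshold narrowly. Its levels were 13.16, 12.39, 8.01 and 25.71 FPKM in SHR replicates 1 to 4, against 31.01, 24.99, 30.82 and 25.07 FPKM in WKY replicates 1 to 4. SHR replicates 1 to 3 lay far below every WKY library, while SHR replicate 4 lay within the WKY range. The mean was 14.8 ± 7.61 FPKM in SHR and 28.0 ± 3.40 FPKM in WKY (SD, n = 4 each), and the log2 fold change was -0.98 ± 0.28 (SE, limma adjusted p = 0.0504). Without SHR replicate 4 the log2 fold change was -1.27 (limma adjusted p = 5.66e-04), and over the other 7 fits without a library the adjusted p reached 0.123. In the authors' deposited table Lss had a log2 fold change of -1.17 and a q-value of 1.11e-15. On either side of the threshold stood Stard4 (limma adjusted p = 0.0434) and Lss (0.0504).

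**Figure D2:**
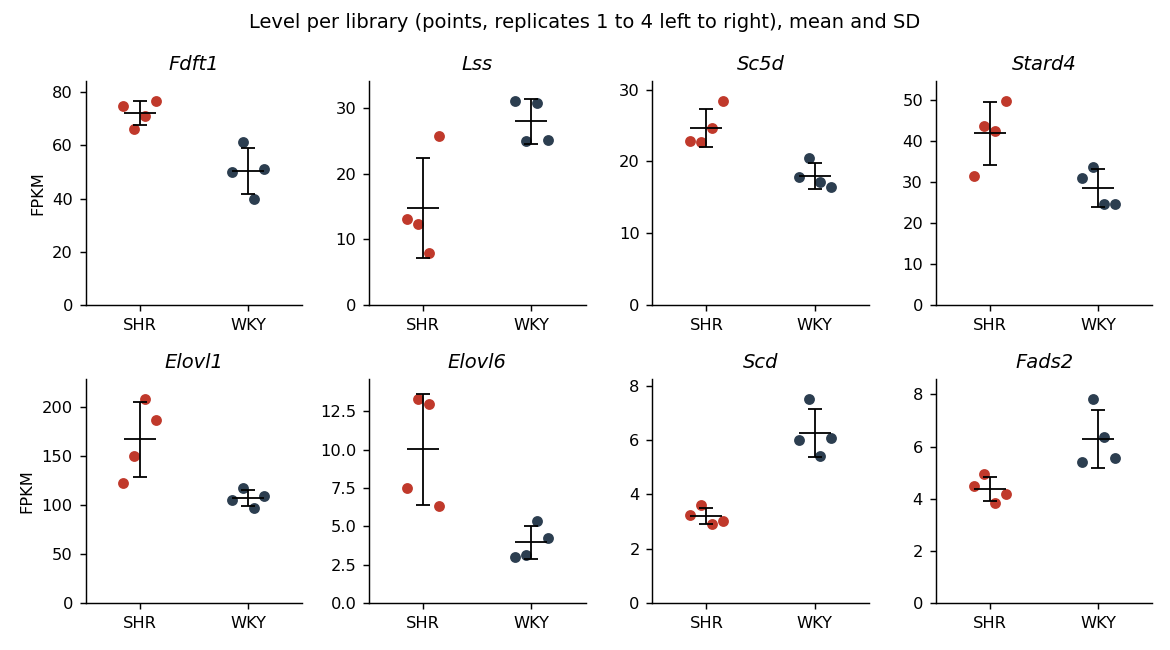
FPKM in each library for 8 genes, SHR at left and WKY at right, with the mean and SD of 4 libraries as a bar and whiskers. SHR replicate 4, at 25.71 FPKM, is the 1 SHR library of Lss that reaches the WKY values, whereas for Fdft1, Sc5d, Elovl1, Elovl6, Scd and Fads2 the strains do not overlap.

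The genes on either side of Lss did not share its pattern. Sqle, the squalene monooxygenase that supplies its substrate, was at 38.83, 38.18, 44.22 and 43.99 FPKM in SHR replicates 1 to 4 and 33.19, 38.45, 26.54 and 34.87 FPKM in WKY replicates 1 to 4. All but 1 SHR library lay above all WKY libraries, and the log2 fold change was 0.31 ± 0.12 (SE, limma adjusted p = 0.128). Cyp51, the lanosterol demethylase that acts next, was at 82.74, 79.55, 82.80 and 109.89 FPKM in SHR replicates 1 to 4 and 76.81, 97.16, 59.69 and 75.08 FPKM in WKY replicates 1 to 4. SHR replicate 4 was again the highest library, and the log2 fold change of 0.21 had an interval of -0.13 to 0.54. Msmo1, the methyl sterol oxidase, averaged 84.5 ± 14.4 FPKM in SHR and 78.9 ± 16.9 FPKM in WKY. Nsdhl and Hsd17b7 act with Msmo1 in removing methyl groups. Nsdhl ranged from 21.73 to 27.26 FPKM in SHR and from 19.14 to 27.74 FPKM in WKY, and Hsd17b7 from 5.41 to 6.25 FPKM in SHR and from 3.56 to 5.87 FPKM in WKY. Ebp, the sterol isomerase before Sc5d, averaged 56.3 ± 4.83 FPKM in SHR and 64.2 ± 8.97 FPKM in WKY. Dhcr7, a reductase of the last steps, averaged 49.4 ± 8.36 FPKM in SHR and 47.5 ± 4.59 FPKM in WKY.

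Tm7sf2 and Lbr encode the sterol reductases that act after Cyp51. Tm7sf2 averaged 9.53 ± 2.27 FPKM in SHR and 10.2 ± 1.61 FPKM in WKY. Lbr, whose protein is also the lamin B receptor of the nuclear envelope, was at 6.56, 11.11, 7.24 and 9.78 FPKM in SHR replicates 1 to 4 and 11.05, 12.87, 9.64 and 11.46 FPKM in WKY replicates 1 to 4. SHR replicates 1 and 3 were the lowest libraries, and a log2 fold change of -0.36 missed the threshold (SE 0.16, limma adjusted p = 0.161).

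Among the WKY libraries, most sterol enzymes had the same lowest and the same highest library. WKY replicate 3 was the lowest WKY library for 17 of the 19 sterol enzymes (89.5%), including all 8 early ones, where it was lowest for 39.9% of all tested genes. WKY replicate 2 was the highest for 14 of 19 (73.7%, beside 36.8% of all tested genes). In SHR, replicate 4 was the highest for 11 of 19 (57.9%, beside 40.4% of all tested genes). The lowest SHR library was replicate 1, 2, 3 and 4 for 1, 8, 6 and 4 enzymes (5.26%, 42.1%, 31.6% and 21.1%). Over all tested genes these shares were 42.5%, 6.98%, 26.5% and 24.6%. No single SHR library was the lowest for most enzymes, but replicate 2 was lowest more often, and replicate 1 less often, than over all tested genes. The mean of the 8 early genes, as log2(FPKM + 1) relative to the mean of all libraries, was 0.10, -0.09, -0.07 and 0.17 in SHR replicates 1 to 4, against -0.004, 0.27, -0.37 and -0.01 in WKY replicates 1 to 4. For the 11 late genes the same measure was -0.03, -0.03, -0.12 and 0.11 in SHR, against 0.03, 0.17, -0.21 and 0.07 in WKY. Both ranges of SHR lay inside those of WKY, so the spread among WKY libraries exceeded any shift between strains. The difference between early and late means was 0.12, -0.06, 0.05 and 0.06 in SHR replicates 1 to 4, against -0.04, 0.10, -0.17 and -0.07 in WKY replicates 1 to 4, and the strains overlapped. The 2 enzymes for which WKY replicate 3 was not the lowest were Lss and Sc5d, and SHR replicate 4 was the lowest SHR library for Mvk, Tm7sf2, Ebp and Dhcr7. WKY replicate 3 also stood apart in the low colonocyte and proliferation sums and the high lymphocyte, enteroendocrine and haemoglobin levels given above, and their part in its low sterol levels was not tested.

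**Figure D3:**
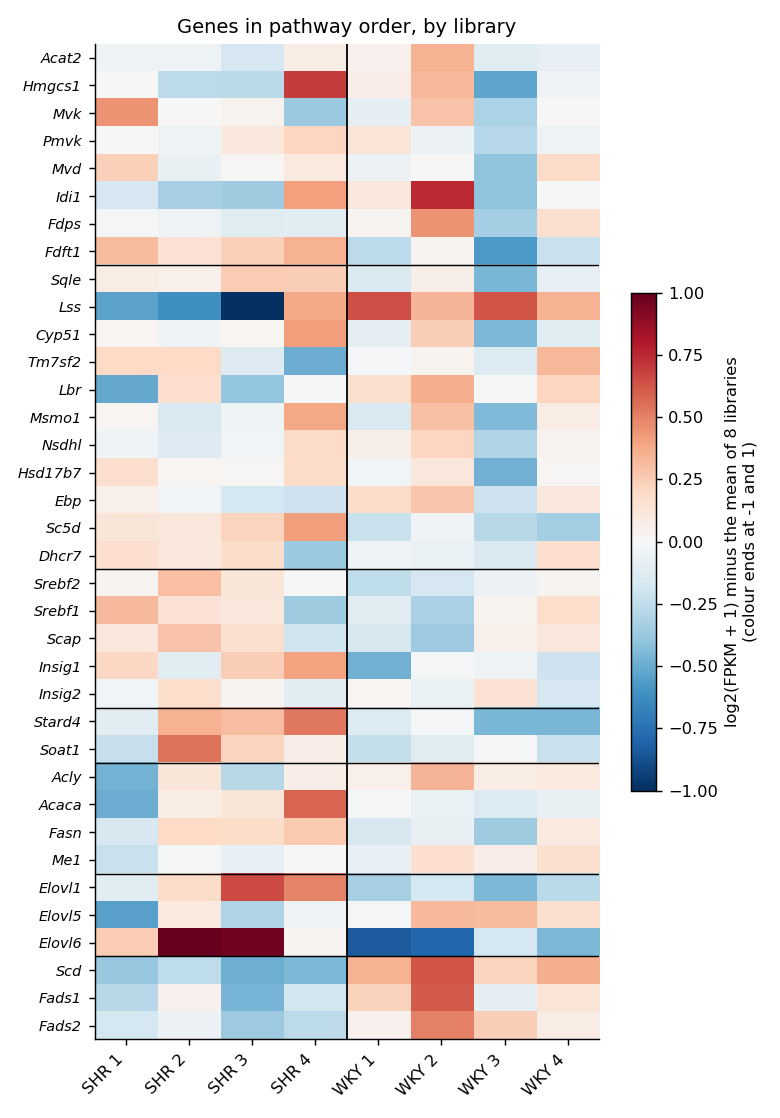
Log2(FPKM + 1) of each gene in each library minus its mean over 8 libraries, in pathway order, with SHR at left and WKY at right of the vertical line and horizontal lines between gene groups. The column of WKY replicate 3 is blue for most sterol enzymes and that of WKY replicate 2 red, while Elovl6, Scd and Fads2 change colour at the strain border.

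The regulators of the pathway showed no call in either direction. Of the 5 genes, 0 passed the limma test and 1 had an unadjusted p under 0.05, and all 5 log2 fold changes were positive, from 0.03 to 0.37. The 1 gene was Insig1, itself a target of SREBPs, which encodes a retention factor of the SCAP complex. Insig1 was at 112.72, 90.63, 115.79 and 129.51 FPKM in SHR replicates 1 to 4, against 69.85, 97.05, 94.71 and 84.39 FPKM in WKY replicates 1 to 4. All SHR libraries but replicate 2 lay above WKY. Its log2 fold change of 0.37 ± 0.14 had an adjusted p of 0.107 (limma), and the authors' deposited table gives a q-value of 0.0502. Insig2, the second retention factor, averaged 16.2 ± 1.46 FPKM in SHR and 15.9 ± 1.57 FPKM in WKY. Srebf2, which encodes the SREBP that mainly drives sterol genes, averaged 52.1 ± 5.21 FPKM in SHR and 44.3 ± 3.84 FPKM in WKY (log2 fold change 0.23, interval -0.01 to 0.47). Srebf1, whose products mainly drive fatty acid genes, averaged 24.2 ± 4.72 FPKM in SHR and 22.2 ± 3.39 FPKM in WKY, and Scap, the escort, averaged 40.1 ± 5.61 FPKM in SHR and 35.2 ± 5.32 FPKM in WKY. The library order differed from that of the enzymes. SHR replicate 4, the highest SHR library for most enzymes, was the lowest for 4 of the 5 regulators (80.0%, beside 24.6% of all tested genes), Insig1 being the exception.

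**Figure D4:**
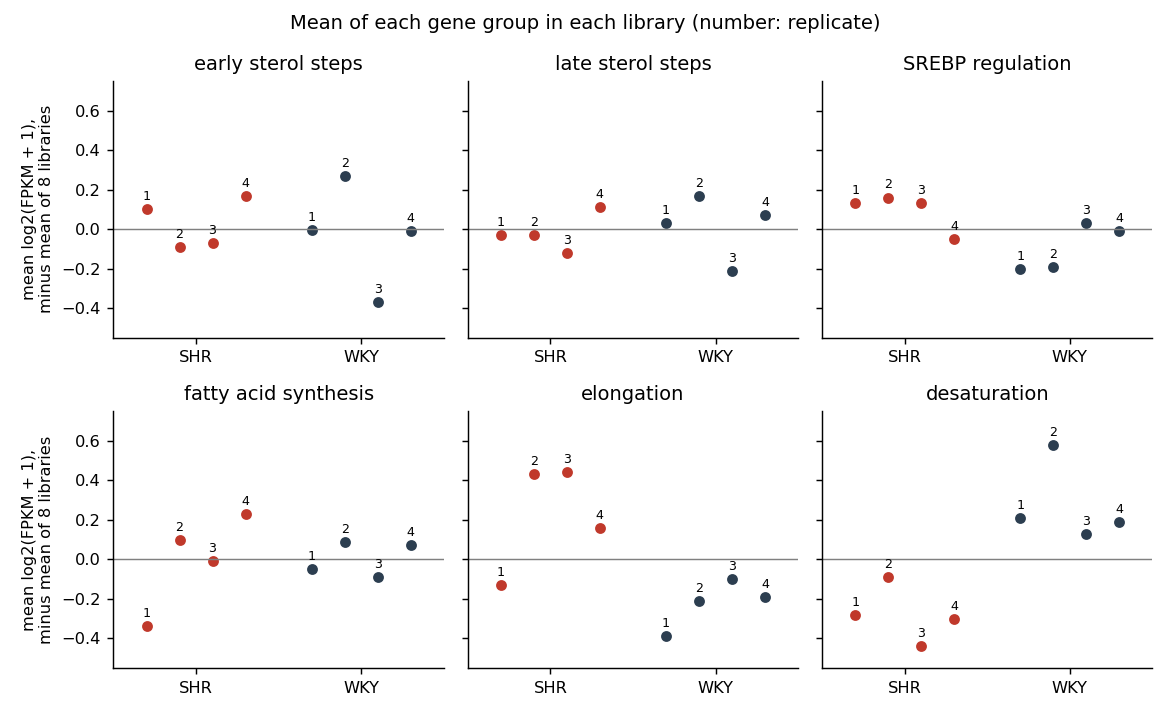
Mean log2(FPKM + 1) of each gene group in each library relative to the mean of 8 libraries, SHR at left and WKY at right, with the replicate number above each point. The WKY points of the early sterol steps span -0.37 to 0.27 around all SHR points, and desaturation is the 1 group shown whose strains do not overlap (-0.44 to -0.09 in SHR, 0.13 to 0.58 in WKY). The desaturation mean includes Fads1, which entered the test only through WKY, so its separation is no support for a difference.

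Of the genes of sterol transport and storage, 1 of 2 rose. Stard4 (ENSRNOG00000020468), which encodes a soluble carrier of cholesterol, was at 31.41, 43.71, 42.48 and 49.58 FPKM in SHR replicates 1 to 4, against 31.03, 33.66, 24.65 and 24.64 FPKM in WKY replicates 1 to 4. SHR replicate 1 lay within the WKY range and the other SHR libraries above it. The mean was 1.47 times as high, and the log2 fold change was 0.53 ± 0.15 (SE; limma adjusted p = 0.0434). The call held without SHR replicate 1 or WKY replicate 2 and ended without any other library, where limma adjusted p ran from 0.0638 without WKY replicate 1 over 0.0726 (WKY replicate 3), 0.0826 (SHR replicate 4), 0.103 (SHR replicate 2) and 0.110 (SHR replicate 3) to 0.131 (WKY replicate 4). Soat1, the acyltransferase that stores cholesterol as ester, was at 6.52, 11.85, 9.28 and 8.22 FPKM in SHR replicates 1 to 4 and 6.45, 7.12, 7.69 and 6.53 FPKM in WKY replicates 1 to 4. It did not pass (limma adjusted p = 0.224), with SHR replicate 1 level with WKY and the others above.

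In de novo fatty acid synthesis, 0 of 4 genes passed the limma test and 0 had an unadjusted p under 0.05, with a median log2 fold change of -0.01. Acly, the citrate lyase that supplies cytosolic acetyl-CoA to both pathways, was at 27.84, 42.73, 32.04 and 40.97 FPKM in SHR replicates 1 to 4 and 40.46, 49.86, 41.34 and 42.01 FPKM in WKY replicates 1 to 4. SHR replicates 1 and 3 were below all WKY libraries (log2 fold change -0.28, interval -0.59 to 0.03). Acaca, the acetyl-CoA carboxylase of the committed step, varied more in SHR than in WKY, at 4.61, 7.34, 7.59 and 10.83 FPKM in SHR replicates 1 to 4 and 6.82, 6.57, 6.21 and 6.53 FPKM in WKY replicates 1 to 4. The WKY values lay inside the SHR range. Fasn, the fatty acid synthase, averaged 21.5 ± 2.78 FPKM in SHR and 18.0 ± 2.46 FPKM in WKY (log2 fold change 0.24, interval -0.04 to 0.53). Me1, the malic enzyme that makes NADPH for synthesis, averaged 59.2 ± 4.23 FPKM in SHR and 66.1 ± 5.27 FPKM in WKY.

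Of the 3 elongase genes 2 rose, 0 fell and 1 did not pass. Elovl6 (ENSRNOG00000010468), which lengthens the saturated chains that fatty acid synthase releases, had the highest log2 fold change of the 36 genes. It was at 7.52, 13.29, 12.95 and 6.29 FPKM in SHR replicates 1 to 4, against 3.02, 3.15, 5.35 and 4.24 FPKM in WKY replicates 1 to 4. The strains did not overlap, with SHR replicates 2 and 3 about level and well above the other SHR libraries. The mean was 2.54 times as high, at 10.0 ± 3.63 FPKM in SHR and 3.94 ± 1.09 FPKM in WKY, and the log2 fold change was 1.12 ± 0.23 (SE, limma adjusted p = 0.0104). It was called in all 8 fits without a library, with adjusted p up to 0.0323. Elovl1 (ENSRNOG00000028448), an elongase of very long chains used in sphingolipids, was at 122.94, 150.26, 208.31 and 187.46 FPKM in SHR replicates 1 to 4, against 104.92, 117.13, 96.89 and 109.38 FPKM in WKY replicates 1 to 4. No SHR library overlapped WKY, though SHR replicate 1 came close. The log2 fold change was 0.61 ± 0.15 (SE, limma adjusted p = 0.0240), and the call ended without SHR replicate 3 (0.0727), WKY replicate 1 (0.0568) or WKY replicate 4 (0.0594). Elovl5, an elongase of polyunsaturated chains, was at 9.61, 15.56, 11.55 and 13.92 FPKM in SHR replicates 1 to 4 and 14.34, 18.40, 18.22 and 16.30 FPKM in WKY replicates 1 to 4. SHR replicate 2 overlapped WKY, and the log2 fold change, -0.40 ± 0.15 (SE), missed the threshold (limma adjusted p = 0.105).

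All 3 desaturase genes had negative log2 fold changes, and 1 fell. Scd (ENSRNOG00000013552), which encodes a stearoyl-CoA desaturase that makes monounsaturated fatty acids, was at 3.24, 3.61, 2.91 and 3.03 FPKM in SHR replicates 1 to 4, against 6.01, 7.51, 5.42 and 6.09 FPKM in WKY replicates 1 to 4. The SHR libraries lay close together below every WKY library, with a mean 0.511 times that of WKY. The log2 fold change was -0.79 ± 0.12 (SE, limma adjusted p = 0.00187), and it was called in all 8 fits without a library. The pseudocount of 1 makes this figure smaller than the ratio of the means. The levels of Scd are low beside those of Scd2, a close relative looked up after the values were seen, which averaged 160 ± 20.6 FPKM in SHR and 139 ± 28.9 FPKM in WKY and did not pass (log2 fold change 0.21, limma adjusted p = 0.366). Reads that match both genes may have been divided between them, so the level of Scd is uncertain.

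The desaturases of polyunsaturated fatty acids did not pass. Fads2, which acts before Fads1 in making long polyunsaturated chains, was at 4.50, 4.96, 3.84 and 4.19 FPKM in SHR replicates 1 to 4, against 5.40, 7.82, 6.37 and 5.55 FPKM in WKY replicates 1 to 4. Each SHR library was below each WKY library, and the log2 fold change, -0.43 ± 0.13 (SE), missed the threshold (limma adjusted p = 0.0572). Fads1 had the lowest level of the 36 genes, at 0.85, 1.32, 0.63 and 0.98 FPKM in SHR replicates 1 to 4, against 1.64, 2.43, 1.11 and 1.46 FPKM in WKY replicates 1 to 4. SHR replicate 2 overlapped WKY, and the log2 fold change of -0.44 ± 0.16 had an adjusted p of 0.0992 (SE, limma). Fads1 reached 1 FPKM in all 4 WKY libraries but in 1 SHR library, so it entered the test only through the strain in which it is higher, and neither its test nor its place in the desaturase counts and means is support for a difference. In all 3 desaturases WKY replicate 2 was the highest WKY library and SHR replicate 3 the lowest SHR library.

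Sterol enzymes and fatty acid genes were then set against each other. Log2 fold changes ran from -0.98 to 0.52 in the sterol enzymes and from -0.79 to 1.12 in the fatty acid genes. The 19 sterol enzymes had 2 higher, 0 lower and a median log2 fold change of 0.06. The 10 fatty acid genes had 2 higher, 1 lower and a median of -0.22. The mean of the sterol enzymes minus that of the fatty acid genes was 0.28, -0.19, -0.09 and 0.08 in SHR replicates 1 to 4, against 0.09, 0.06, -0.25 and 0.01 in WKY replicates 1 to 4 on the relative log2 scale. The strains overlapped. For elongation the relative mean was -0.13, 0.43, 0.44 and 0.16 in SHR, against -0.39, -0.21, -0.10 and -0.19 in WKY, where SHR replicate 1 overlapped WKY. For desaturation it was -0.28, -0.09, -0.44 and -0.30 in SHR, against 0.21, 0.58, 0.13 and 0.19 in WKY, with no overlap. The desaturation mean includes Fads1, which entered the test only through WKY, so this separation is no support for a difference. These group means carry no test.

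Ratios of genes within a library do not depend on how libraries are scaled. The pairs were chosen after the values were seen and are given as a description. The log2 ratio of Fdft1 over Fdps was -1.45, -1.58, -1.42 and -1.32 in SHR replicates 1 to 4, against -2.08, -2.21, -2.03 and -2.17 in WKY replicates 1 to 4. In either strain the libraries lay within a narrow band, although Fdps alone spread widely in WKY. The log2 ratio of Lss over Sqle was -1.56, -1.62, -2.46 and -0.77 in SHR, against -0.10, -0.62, 0.22 and -0.48 in WKY. On this measure SHR replicate 4 lay below the WKY libraries too, at a Sqle level of 43.99 FPKM. For Sc5d over Ebp the log2 ratio ranged from -1.44 to -0.87 in SHR and from -1.98 to -1.59 in WKY. Elovl6 and Elovl5 are elongases of different chains and not neighbouring steps. For Elovl6 over Elovl5 the log2 ratio ranged from -1.15 to 0.17 in SHR and from -2.55 to -1.77 in WKY.

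**Figure D5:**
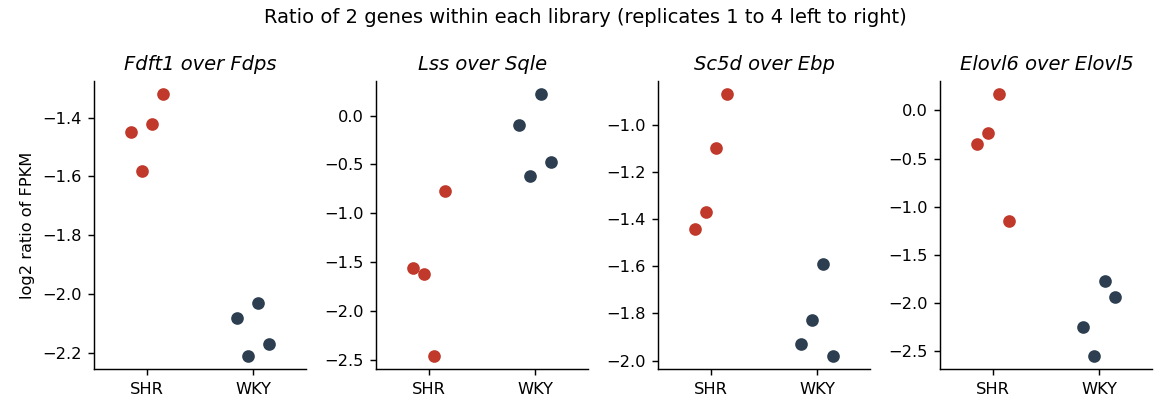
Log2 ratio of the FPKM values of 2 genes within each library, SHR at left and WKY at right, for 4 pairs of genes. Elovl6 and Elovl5 are elongases of different chains, while the other pairs are neighbouring steps. The strains do not overlap in any of the 4 panels, and the Fdft1 over Fdps panel has the narrowest SHR range, from -1.58 to -1.32. The pairs were chosen after the values were seen, so the separation is a description and no support for a difference.

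Among other genes of these pathways, 53 of 63 listed by name were tested, and 3 rose (5.66%), 2 fell (3.77%) and 48 missed the threshold. These shares stand beside 3.40% higher and 7.48% lower over all tested genes, so the counts are no result about the list. Their median log2 fold change was -0.01. Dgat2, which makes triacylglycerol, was at 37.43, 38.57, 46.49 and 27.57 FPKM in SHR replicates 1 to 4, against 26.81, 19.23, 25.64 and 25.90 FPKM in WKY replicates 1 to 4. SHR replicate 4 came close to the WKY libraries without overlapping them (log2 fold change 0.59 ± 0.16, SE, limma adjusted p = 0.0322). Npc2, a lysosomal cholesterol carrier, fell to 81.3 ± 5.22 FPKM in SHR, against 103 ± 2.27 FPKM in WKY (log2 fold change -0.34, limma adjusted p = 0.0385). The Npc2 call ended in 6 of 8 fits without a library and that of Dgat2 in 5 of 8. The Npc2 call also ended after quantile normalization (limma adjusted p = 0.0638) and median centring (0.0579), and in the authors' deposited table its q-value was 0.0565.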

How the data were processed

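RNA was sequenced from 4 SHR and 4 WKY samples of colonic epithelium with a strand-specific poly(A) kit, per the labels' protocols. The tools listed, with no version, by the submitters' processing notes are FastQC, Trimmomatic and STAR. For genome build, annotation, counting tool and the authors' test, nothing was given in the sources used here. The deposited table lists 11762 genes. The authors' values per library carry no unit and were read as FPKM. Multiplying each by a gene length implied by the authors' mean CPM gave sums of 982968 to 1017515 per library. The size of these sums follows largely from how the lengths were derived. Only their narrower spread, beside 882295 to 1066833 for the plain sums, bears on the unit, which remains an inference. Read counts and depth are unknown, so no count test was run and no counting error can be given. The authors' deposited log2 fold changes and q-values are printed only where named.

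The 11069 genes that reached 1 FPKM in 4 or more libraries were tested as log2(FPKM + 1) with limma 3.58.1 in R 4.3.3, comparing SHR with WKY with a mean-variance trend and robust variance estimation. P-values were adjusted over all tested genes by the Benjamini-Hochberg method, with a threshold of 0.05. Fold changes on this scale understate those of low genes. The script was tested on simulated data. Alternatives were pseudocounts of 0.1 and 5, no filter, quantile normalization, median centring, a replicate block, leaving out each library, and the authors' q-values. All 36 genes are accounted for in the text, with library values for those past or near the threshold or central to a step. From a list of other pathway genes, those past the threshold are named, except that 3 are not reported here. The members and lists were chosen with earlier results of these data known. No gene sequences were used here.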

Additional observations from a re-analysis of the deposited data

Results flagged for a closer look

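In 4 of 94 groups of 4 libraries examined, 1 library lay far from the other 3 by Dixon's test at the 95% level, where chance alone gives about 5% of groups. Cyp51 stood at 109.89 FPKM in SHR replicate 4, where the other SHR libraries were at 79.55 to 82.80 FPKM. Dhcr7 stood at 37.03 FPKM in SHR replicate 4, where the other SHR libraries were at 51.92 to 54.69 FPKM. The mean of the 5 regulators was -0.05 in SHR replicate 4 on the relative log2 scale, where the other SHR libraries were at 0.13 to 0.16. Acly stood at 49.86 FPKM in WKY replicate 2, where the other WKY libraries were at 40.46 to 42.01 FPKM. Of these 4 values 3 belong to SHR replicate 4.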

How the results depend on the processing

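Of the 36 genes, 5 were higher and 1 lower. The count of higher genes was 3 with the replicate block and ran from 1 to 5 over the 8 fits without a library, being 1 (Elovl6) without SHR replicate 3, WKY replicate 1 or WKY replicate 4. In those last fits 1.94%, 2.25% and 2.00% of all tested genes were called higher, and 3.57% with the block. The count of lower genes was 2 with no filter, a pseudocount of 5 or the authors' q-value (Lss joining Scd), 2 with the replicate block (Fads1 joining Scd), and 1 to 2 without a library (2 without SHR replicate 4, with Lss, or WKY replicate 3, with Fads1). Over all genes the share called lower was 7.80% with no filter, 7.32% with a pseudocount of 5, 9.59% by the authors' q-value and 8.28% with the block. With the block, limma adjusted p was 0.0576 for Sc5d, 0.0580 for Stard4, 0.0710 for Npc2 and 0.0374 for Fads1. The replicate numbers share no stated origin. Deviations of same-numbered libraries correlated at -0.105, -0.0393, 0.463 and -0.29. Among SHR libraries only replicate 3 correlated best with its own number. SHR replicates 1 and 2 correlated best with WKY replicate 4 (0.22 and 0.0713), and SHR replicate 4 with WKY replicate 1 (0.284). Of the other pathway genes 3 were higher (1 to 3 without a library) and 2 lower, which was 1 with median centring, 1 with quantile normalization, 1 with the block and 1 to 4 without a library. The sign of Nsdhl, -0.003, became positive with median centring (0.04), quantile normalization (0.05) and in the authors' table (0.02). Without a library, signs also turned for genes near 0, with log2 fold changes of -0.10 to 0.07 for Nsdhl, -0.13 to 0.21 for Hmgcs1, -0.01 to 0.17 for Dhcr7, -0.02 to 0.22 for Msmo1, -0.08 to 0.19 for Mvk, -0.20 to 0.03 for Tm7sf2, -0.15 to 0.01 for Acat2, -0.02 to 0.09 for Insig2 and -0.03 to 0.33 for Acaca. The cause was not tested. Counting Sqle and Lss with the early steps left medians of 0.07 and 0.04, and the late median without Lbr was 0.08. No symbol among the 36 had several rows, so that alternative gave no value. With 4 libraries a strain and unknown depth, a missed threshold does not show equal levels.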
